A study of Mus musculus with 6 samples.

Results

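The genes described here encode ion channels, calcium handling proteins and gap junction proteins. They were taken by symbol from the authors' deposited table of siCon- against siH19-transfected myotubes, using the prefixes of the potassium (Kcn), calcium (Cacn), sodium (Scn), chloride (Clcn, Clic), transient receptor potential (TRP) and purinergic (P2rx) channels, the ryanodine and inositol trisphosphate receptors and their partners in the sarcoplasmic reticulum, the acetylcholine receptor (Chrn), the sodium potassium and calcium pumps (Atp1, Atp2) and the connexins (Gja, Gjb, Gjc). Of 3019 features in the table, 45 met this rule. Both groups were myotubes of the mouse C3H myoblast line, transfected after 40 h of differentiation and harvested 48 h later. One group received control siRNA (siCon) and the other siRNA against the H19 long noncoding RNA (siH19), with 3 libraries in each. All 6 libraries came from this 1 cell line, and how many cells had fused was not analysed here. The question was how transcript levels differ when H19 is reduced.

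In skeletal muscle, an action potential starts at acetylcholine receptors of the neuromuscular junction, spreads through voltage-gated sodium channels and enters the transverse tubules. There, the L-type calcium channel acts as the voltage sensor and opens ryanodine receptors, which release calcium that calsequestrin holds inside the sarcoplasmic reticulum. SERCA pumps then return the calcium, while the sodium potassium pump and potassium and chloride channels restore the membrane potential. Connexins form gap junctions between neighbouring cells and are best known in muscle from myoblasts and embryonic fibres.

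Each value below is the log2 FPKM of a group, that is, sequenced fragments divided by transcript length in kilobases and by the mapped total. The authors' deposited table gives 1 such value over the 3 libraries of a group, so that the spread between libraries and their depth are unknown, no test across libraries was run, and no value carries an error. It lists only features that the authors called as different, so that every member had a call by their test, and a gene without a row was either not called or not tested. Differences are siH19 minus siCon on the log2 scale. Because the values have 2 decimals, a difference is exact to within 0.01. In bulk RNA, fewer cells of a kind and less RNA per cell cannot be told apart. The target H19 had a log2 FPKM of 11.20 with siCon and 7.50 with siH19, which leaves 7.69% of the siCon level.

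Of the 45 members, 35 were higher and 10 were lower in siH19 (77.8% higher). Among all 3019 listed features 62.8% were higher and 37.2% lower, and among the 2549 with a gene symbol 60.1% were higher and 39.9% lower. When every difference was lowered by 0.45, the median of all listed features, 29 members were higher and 16 lower, the sign having turned for Gja1, Chrna1, Kcnf1, Kcnq1ot1, Cacna2d1 and Cacng1. That median comes from called features only, among which small differences are missing, so it does not measure a shift over all genes. By construction, about as many listed features lie above it as below it, and positive differences under 0.45 turn lower. The median difference was 0.62 over the members, 0.45 over all listed features and 0.41 over those with a symbol. At least 1.5-fold differences were found for 24 members higher and 8 lower, against 37.4% of all listed features higher and 16.9% lower by that fold (30.8% and 16.3% of those with a symbol). After the same centring 9 members were higher and 10 lower by at least 1.5-fold, and with 1 FPKM added to both groups 12 were higher and 3 lower. The shares of all listed features under these settings were not computed, so these counts cannot be set against those given above. At least 2-fold differences were found for 11 members higher and 4 lower, against 16.9% of all listed features higher and 6.09% lower (9.73% and 5.34% of those with a symbol). The 45 member values sum to 1454 FPKM in siCon and 2382 FPKM in siH19, a ratio of 1.64, against a ratio of 1.29 for the sum over all listed features. The direction differed by role. Among members of the calcium channel, calcium release, pump, acetylcholine receptor and sodium channel groups, 23 of 24 were higher, with Atp2b4 as the exception and with Chrna1, Cacna2d1 and Cacng1 turning lower after centring. Of the other 21, which are potassium, chloride, TRP and purinergic channels, connexins and 1 antisense RNA, 12 were higher and 9 lower, and Gja1, Kcnf1 and Kcnq1ot1 turn lower after centring. This division by role was made with the values known and was not tested.

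**Figure D1:**
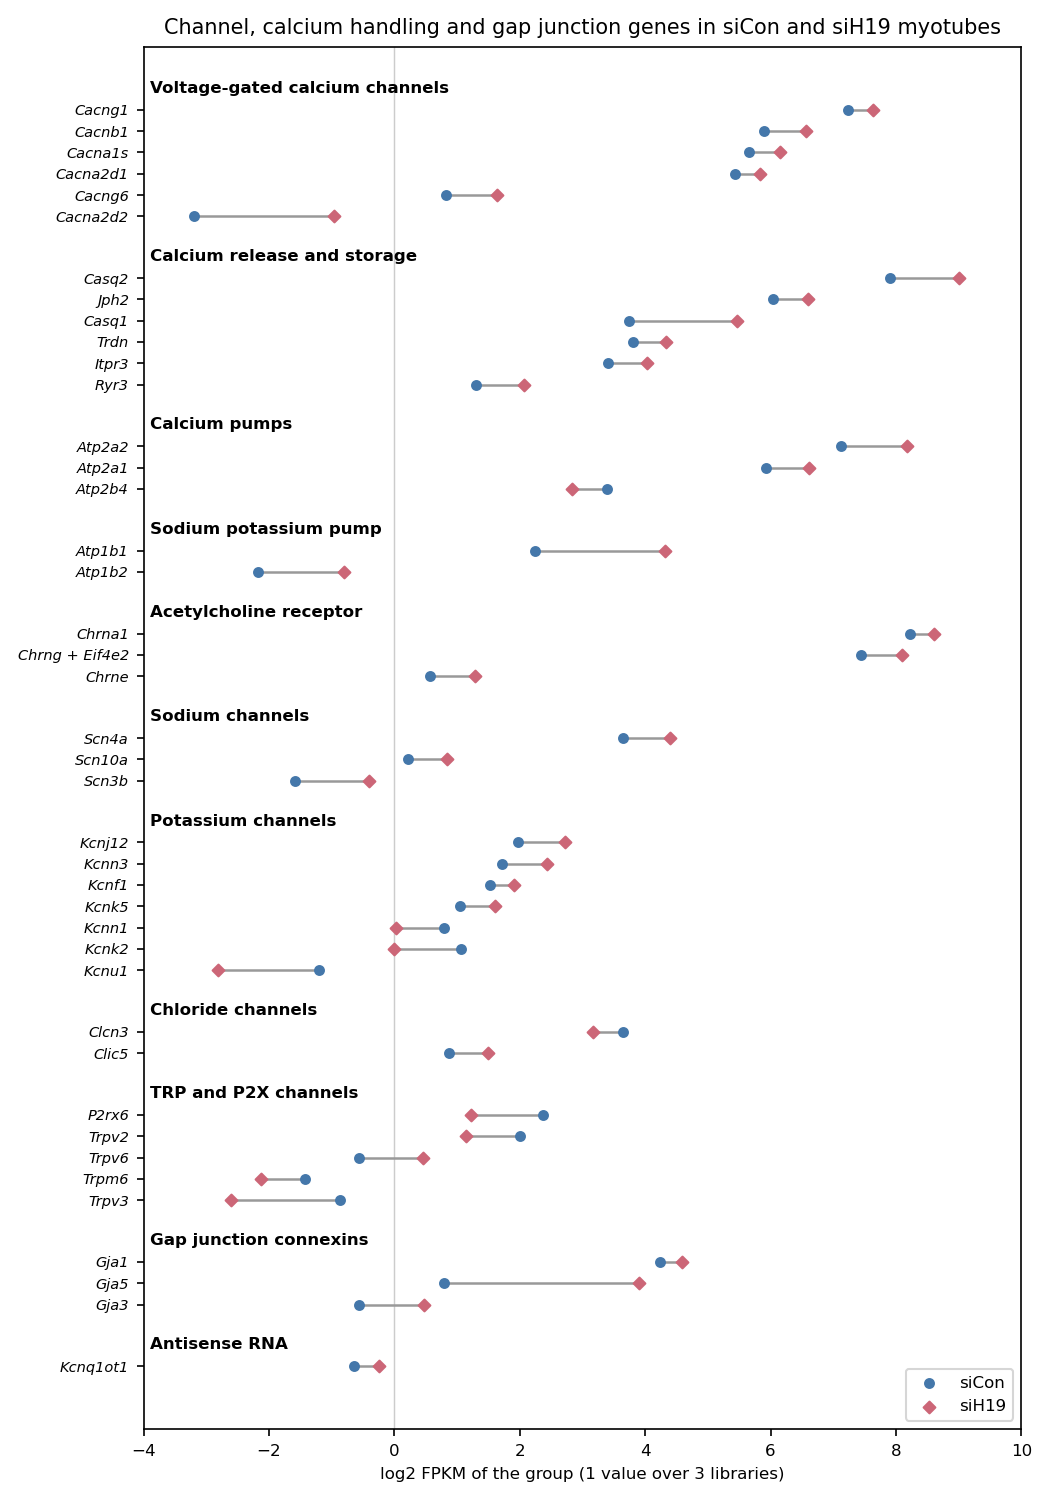
Log2 FPKM of 41 of the 45 members in siCon (blue circles) and siH19 (red diamonds) myotubes, grouped by role, with 1 group value over 3 libraries per point and no error bars because no spread was given. Diamonds lie to the right of circles for 32 of these 41 members (26 after centring on the median of all listed features), and the longest line is that of Gja5.

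All 12 members with a siCon log2 FPKM of at least 4 were higher in siH19, by 0.35 to 1.10, although Gja1, Chrna1, Cacna2d1 and Cacng1 fall below 0 once centred on the median of all listed features. Of all 948 listed features at such levels, 61.8% were higher. Of the 33 members below that level, 23 were higher and 10 lower (69.7% higher), against 63.3% higher of the 2071 listed features there. After centring, 8 of the 12 (66.7%) and 21 of the 33 (63.6%) were higher, and the difference between these levels was not tested. The shares of all listed features at these levels after centring were not computed. The most abundant of the 10 lower members in siCon was Clcn3, at a log2 FPKM of 3.64. In 7 members the log2 FPKM was under 0 in both groups, 4 of them higher and 3 lower. Small differences are missing from the table, as the plot of difference against control level shows.

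**Figure D2:**
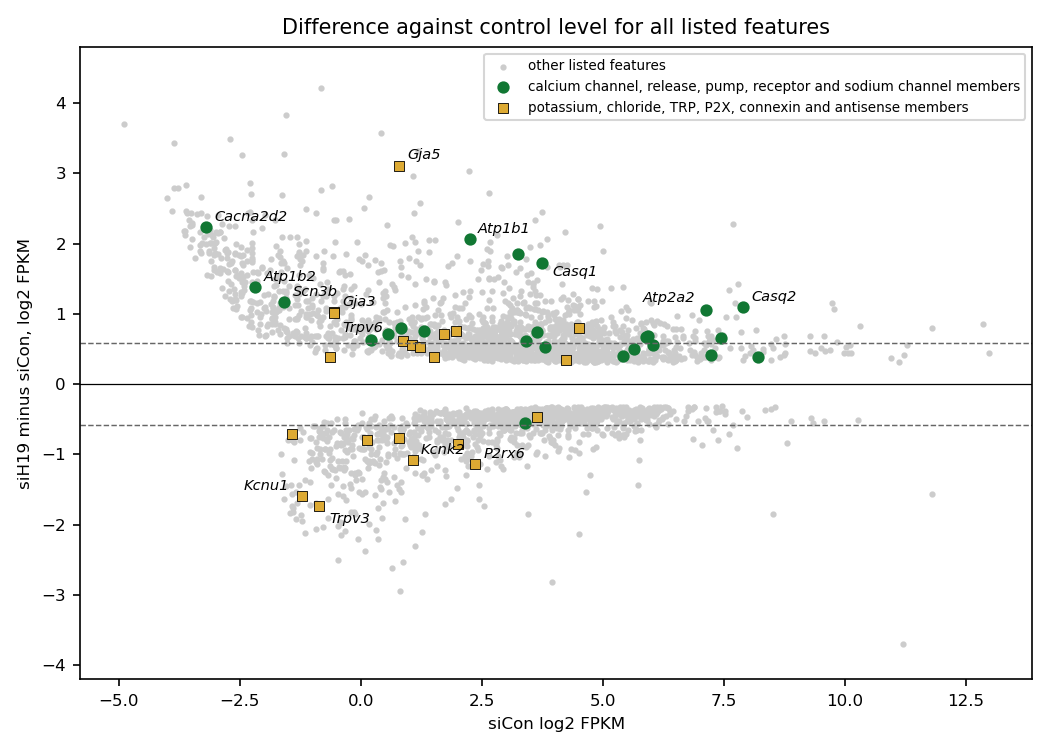
Difference of log2 FPKM (siH19 minus siCon, vertical) against the siCon log2 FPKM (horizontal) for listed features above the floor of the table, with the members in green circles and yellow squares and dashed lines at 1.5-fold. The empty band around 0 is left by features without a call, and all 12 members to the right of a siCon log2 FPKM of 4 lie above 0, of which Gja1, Chrna1, Cacna2d1 and Cacng1 lie under 0.45, the median of all listed features.

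The promoters of a few members are shown because MyoD family factors, such as myogenin, bind E-boxes (CANNTG) with a preference for CAGCTG. Promoter windows of RefSeq on GRCm38.p6 were found for 34 of the 45 members (44 windows), and the 250 bases before each start were searched. Both motifs read the same on either strand, and each CAGCTG also counts as an E-box. The motif CAGCTG was present in 14 of 44 member windows (31.8%), against 13.0% of all 32851 windows and 13.9% of the 2504 windows of listed genes. Any E-box was present in 68.2% of member windows, 66.2% of all windows and 58.6% of the windows of listed genes. By direction, CAGCTG occurred in 9 of 29 windows of higher members (31.0%) and in 5 of 15 windows of lower members (33.3%). Some genes have several windows, and these shares are descriptions without a test. Among the windows printed below, only those of Casq1 and Gja5 end at the start of the measured row. Those of Chrna1, Chrng, Chrne, Casq2 and Trpm6 end at another annotated start, so they need not be the promoters of the measured transcripts.

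The windows of the 3 listed acetylcholine receptor subunits each hold CAGCTG, and capitals mark CANNTG matches. Chrna1 (chr2:73580339-73580588, minus strand) has CAGCTG from 92 and from 44 bases before the start, and CAGGTG from 73 bases before it. Chrng (chr1:87205561-87205810, plus strand) has CAGCTG from 155 and from 132 bases before its start. Chrne (chr11:70619195-70619444, minus strand) has CAGCTG from 138 bases before its start.
Chrna1: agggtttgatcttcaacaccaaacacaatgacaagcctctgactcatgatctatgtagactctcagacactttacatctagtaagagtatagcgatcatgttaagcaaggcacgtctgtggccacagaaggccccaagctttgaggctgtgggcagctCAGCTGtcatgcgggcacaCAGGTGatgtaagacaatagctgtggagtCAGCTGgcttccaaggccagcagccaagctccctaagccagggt
Chrng: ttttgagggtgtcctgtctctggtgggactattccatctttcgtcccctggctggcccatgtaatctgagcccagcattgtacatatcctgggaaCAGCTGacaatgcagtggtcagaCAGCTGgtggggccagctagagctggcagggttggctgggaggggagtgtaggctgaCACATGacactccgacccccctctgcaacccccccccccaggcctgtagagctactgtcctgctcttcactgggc
Chrne: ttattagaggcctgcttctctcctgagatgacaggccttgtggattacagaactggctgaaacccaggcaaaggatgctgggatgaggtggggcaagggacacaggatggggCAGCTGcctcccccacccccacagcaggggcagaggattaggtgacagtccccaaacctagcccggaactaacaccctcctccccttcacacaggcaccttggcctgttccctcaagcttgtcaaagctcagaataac

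The calsequestrin promoters are shown as a pair of related genes that were both higher. Casq1 (chr1:172219896-172220145, minus strand) holds CAGCTG from 195 bases and CAGGTG from 67 bases before the start. Casq2 (chr3:102086165-102086414, plus strand) holds CANNTG matches from 200 and from 52 bases, and a match to the MEF2 site from 69 bases before the start, which is also in capitals. The MEF2 site, bound by MEF2 factors that act with the MyoD family, was found in 4 of 44 member windows (9.09%) and in 2.92% of all windows.
Casq1: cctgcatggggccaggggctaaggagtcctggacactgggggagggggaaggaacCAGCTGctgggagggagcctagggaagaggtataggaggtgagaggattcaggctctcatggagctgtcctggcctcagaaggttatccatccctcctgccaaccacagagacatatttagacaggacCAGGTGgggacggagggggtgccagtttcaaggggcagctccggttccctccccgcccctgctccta
Casq2: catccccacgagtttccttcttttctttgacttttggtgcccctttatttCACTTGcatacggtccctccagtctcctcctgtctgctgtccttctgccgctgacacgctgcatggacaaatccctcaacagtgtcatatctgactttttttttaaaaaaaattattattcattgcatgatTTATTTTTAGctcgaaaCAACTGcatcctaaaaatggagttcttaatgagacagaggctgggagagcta

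For contrast, Gja5, the member with the largest difference, and Trpm6, a lower member, are shown. The Gja5 window (chr3:97032152-97032401, plus strand) holds no CANNTG. The Trpm6 window (chr19:18749480-18749729, plus strand) holds 4, of which the CAGCTG lies from 100 bases before the start.
Gja5: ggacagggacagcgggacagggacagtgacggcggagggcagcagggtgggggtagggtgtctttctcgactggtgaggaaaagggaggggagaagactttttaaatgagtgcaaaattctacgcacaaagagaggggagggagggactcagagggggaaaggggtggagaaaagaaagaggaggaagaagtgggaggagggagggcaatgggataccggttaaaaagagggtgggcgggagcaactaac
Trpm6: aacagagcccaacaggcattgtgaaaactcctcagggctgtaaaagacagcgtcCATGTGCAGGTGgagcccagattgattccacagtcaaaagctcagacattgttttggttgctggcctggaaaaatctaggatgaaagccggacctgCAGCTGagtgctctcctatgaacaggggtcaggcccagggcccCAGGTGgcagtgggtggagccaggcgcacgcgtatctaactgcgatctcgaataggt

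Subunits of the voltage-gated calcium channel were higher in 6 of 6 listed genes, against 62.8% of all listed features. Of these genes, Cacng1 and Cacna2d1 turn lower after centring. The L-type channel of skeletal muscle consists of the pore-forming subunit Cacna1s with Cacnb1, Cacng1 and Cacna2d1, and each of these 4 had a row. Cacna1s had a log2 FPKM of 5.65 with siCon and 6.15 with siH19, a difference of 0.50. Cacnb1, which brings the channel to the triad, had 5.90 and 6.57, a difference of 0.67. The most abundant, Cacng1, had 7.23 and 7.64, a difference of 0.41, and Cacna2d1 had 5.43 and 5.83, a difference of 0.40. The 4 subunits lay 1.32-fold to 1.59-fold above siCon, but after centring their differences were 0.05 for Cacna1s, 0.22 for Cacnb1, -0.04 for Cacng1 and -0.05 for Cacna2d1. Of the related subunits, Cacng6 was higher by 0.80, from 0.83 to 1.63, and made up 1.17% of the summed FPKM of Cacng1 and Cacng6 in siCon. Cacna2d2 had the largest difference of the group (2.23), from -3.20 to -0.97, but at 0.511 FPKM in siH19 it remained at 0.889% of the sum with Cacna2d1. With 1 FPKM added to both groups its difference was 0.446, under that of Cacnb1 (0.661). Of 26 annotated genes with the Cacn prefix, the other 20 had no row.

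Genes of calcium release and storage were higher in 6 of 6 listed cases, against 62.8% of all listed features. Their summed FPKM was 345 in siCon and 693 in siH19, a ratio of 2.01, against 1.29 for all listed features. Without Casq2 the ratio was 1.70, and the median difference of the 6 was 0.69. Casq2, the calsequestrin typical of heart and slow fibres, had a log2 FPKM of 7.90 with siCon and 9.00 with siH19. Its difference of 1.10 (2.14-fold) moved it from second among the members in siCon, below Chrna1, to the highest in siH19. Casq1, the calsequestrin typical of fast fibres, had 3.74 and 5.46, a difference of 1.72 (3.29-fold). Casq1 therefore made up 5.30% of the summed calsequestrin FPKM in siCon and 7.92% in siH19. On the linear scale Casq2 gained more, from 239 to 512 FPKM, than Casq1, from 13.4 to 44.0 FPKM. Trdn (triadin), which anchors calsequestrin at the release site, was higher by 0.53, from 3.80 to 4.33. Jph2 (junctophilin), which ties the sarcoplasmic reticulum to the transverse tubule, was higher by 0.55, from 6.04 to 6.59. Ryr3, a ryanodine receptor of developing muscle, had 1.30 and 2.06, a difference of 0.76. Itpr3, an inositol trisphosphate receptor, had 3.41 and 4.03, a difference of 0.62. Centred on the median of all listed features, the differences were 0.08 for Trdn, 0.10 for Jph2, 0.17 for Itpr3 and 0.31 for Ryr3. For Casq2 and Casq1 they were 0.65 and 1.27. Ryr1, the main release channel of skeletal muscle, had no row, and neither did Stac3, Sln or Jph1.

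Of 7 annotated calcium pump genes 3 had a row, of which both SERCA pumps of the sarcoplasmic reticulum were higher and Atp2b4 was lower. Atp2a2 (SERCA2) had a log2 FPKM of 7.13 with siCon and 8.18 with siH19, a difference of 1.05 (2.07-fold). Atp2a1 (SERCA1), the pump of fast fibres, had 5.93 and 6.62, a difference of 0.69 (1.61-fold). The share of Atp2a2 in their summed FPKM was 69.7% in siCon and 74.7% in siH19. Atp2b4, which exports calcium through the plasma membrane, was lower by 0.56, from 3.39 to 2.83 (1.47-fold lower), which is just inside the 1.5-fold limit, and by 1.01 after centring, which is past it.

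Of the sodium potassium pump, 3 genes had a row and all 3 were higher by at least 2-fold, against 16.9% of all listed features (9.73% of those with a symbol). Atp1b1, a beta subunit that brings the pump to the membrane, had a log2 FPKM of 2.25 with siCon and 4.31 with siH19, a difference of 2.06 (4.17-fold). Atp1b2, another beta subunit, had -2.18 and -0.80, a difference of 1.38 (2.60-fold), and remained under 1 FPKM (0.574) in siH19. It was under 2-fold after centring (0.93) and with 1 FPKM added to both groups (0.37). Atp1b1 made up 95.6% of the summed FPKM of these beta subunits in siCon and 97.2% in siH19.

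Of the acetylcholine receptor, 3 subunits had a row and all 3 were higher, against 62.8% of all listed features. Of these subunits, Chrna1 turns lower after centring. Chrna1, the subunit that holds the main binding site, had the highest siCon level of all members, a log2 FPKM of 8.22, and 8.60 in siH19, a difference of 0.38. Chrng, the subunit of the fetal receptor, shares its row with Eif4e2, a gene for a cap-binding protein, so its level could not be separated. That row had 7.45 in siCon and 8.10 in siH19, a difference of 0.65. Chrne, which replaces Chrng in the adult receptor, had 0.57 and 1.29, a difference of 0.72 (1.65-fold). It remained at 0.842% of the sum with the Chrng row in siCon and 0.883% in siH19. Chrnb1 and Chrnd, which complete the receptor, had no row.

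Among sodium channels, Scn4a, the channel of the adult muscle action potential, was higher by 0.74, from a log2 FPKM of 3.65 to 4.39 (1.67-fold). Scn10a, best known from sensory neurons, had 0.21 and 0.84, a difference of 0.63. Scn3b, an accessory subunit, had -1.58 and -0.41, a difference of 1.17, at a level under 1 FPKM in both groups. With 1 FPKM added to both groups its difference was 0.393. Of 10 neuron marker genes, 3 had a row, Map2 with a difference of -1.17, Nefl with 0.48 and Tubb3 with 0.37. Of 8 Schwann and glial marker genes 0 had one, which does not tell whether they were expressed.

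Potassium channels did not share a direction. Of 9 channel genes, 6 were higher and 3 lower (66.7% higher), near the 62.8% of all listed features. Kcnj12, an inward rectifier that sets the resting potential of muscle, had a log2 FPKM of 1.97 with siCon and 2.72 with siH19, a difference of 0.75. Kcnf1, a subunit of voltage-gated channels, had 1.52 and 1.91, a difference of 0.39 that turns negative after centring. In pairs of related channels the differences had opposite signs. Kcnn3, a calcium-activated channel of small conductance, had 1.72 and 2.43, a difference of 0.71, while its relative Kcnn1 had 0.79 and 0.02, a difference of -0.77. Kcnn3 therefore made up 65.6% of their summed FPKM in siCon and 84.2% in siH19. Among channels with tandem pore domains, Kcnk5 had 1.05 and 1.61, a difference of 0.56, and Kcnk2, which responds to membrane stretch, had 1.07 and -0.01, a difference of -1.08. Their sum was nearly the same in both groups, 4.17 and 4.05 FPKM, while the share of Kcnk2 was 50.3% in siCon and 24.5% in siH19. Kcnu1, best known from sperm, was lower by 1.60 at levels under 1 FPKM. With 1 FPKM added to both groups its difference was -0.326.

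**Figure D3:**
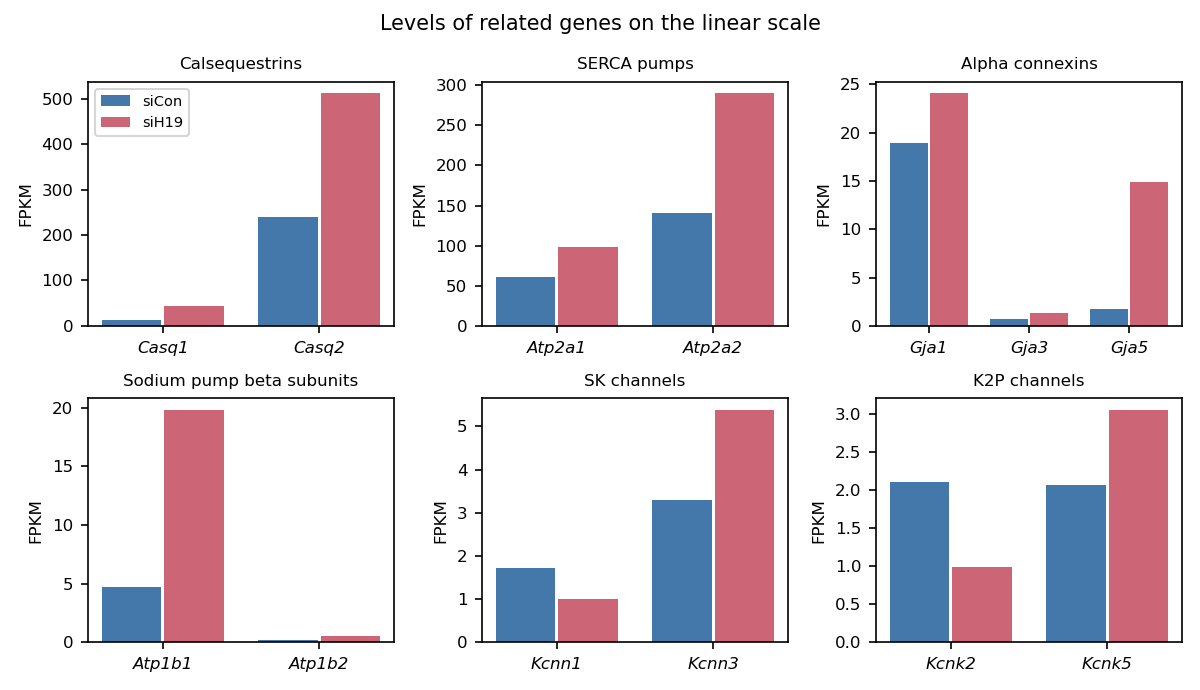
FPKM on a linear scale from 0 for 6 sets of related members in siCon (blue bars) and siH19 (red bars), 1 group value per bar without error bars. Both genes were higher in siH19 for the calsequestrins, SERCA pumps and sodium pump beta subunits, whereas Kcnn1 and Kcnk2 were lower beside their higher relatives, and Gja5 reached 14.9 FPKM beside 24.1 FPKM for Gja1.

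Chloride channels were few. Clcn3, an exchanger of intracellular membranes, was lower by 0.47, from 3.64 to 3.17, and Clic5, a chloride intracellular channel protein, was higher by 0.62, from 0.87 to 1.49. Clcn1, the chloride channel of the muscle membrane, had no row.

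TRP and purinergic channels were the group with mostly lower members, 4 of 5, against 37.2% of all listed features. Their summed FPKM was 10.8 in siCon and 6.32 in siH19, a ratio of 0.587, against 1.29 for all listed features. Trpv2, a calcium-permeable channel, had a log2 FPKM of 2.00 with siCon and 1.15 with siH19, a difference of -0.85 (1.80-fold lower). P2rx6, a subunit of ATP-gated channels, had 2.37 and 1.23, a difference of -1.14 (2.20-fold lower). Its row has the same locus as Slc7a4, a gene on the opposite strand, which was lower by 0.99, from 0.21 to -0.78. Trpv3, a heat-sensitive channel, was lower by 1.74, from -0.86 to -2.60, and Trpm6, a magnesium channel, by 0.71, from -1.42 to -2.13, both at levels under 1 FPKM. With 1 FPKM added to both groups their differences were -0.413 for Trpv3 and -0.161 for Trpm6, both under 1.5-fold. Trpv6, a calcium-selective channel, was the exception, with -0.56 and 0.45, a difference of 1.01 (0.495 with 1 FPKM added).

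Connexins included the member with the largest difference. Gja5 (connexin 40) had a log2 FPKM of 0.79 with siCon and 3.90 with siH19, a difference of 3.11, or from 1.73 to 14.9 FPKM (8.63-fold). Gja5 is best known from endothelium and the conduction system of the heart. Of 10 endothelial marker genes 0 had a row, which does not tell whether they were expressed. Gja1 (connexin 43), the main connexin of myoblasts, had 4.24 and 4.59, a difference of 0.35. The share of Gja5 in the summed FPKM of Gja1, Gja3 and Gja5 was 8.12% in siCon and 37.0% in siH19. Gja3 (connexin 46), best known from the lens, had -0.56 and 0.47, a difference of 1.03.

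Kcnq1ot1 met the rule by its symbol and is not a channel. It is an imprinted antisense RNA of the Kcnq1 locus, with a log2 FPKM of -0.64 with siCon and -0.25 with siH19, a difference of 0.39. Its row reaches 227 kb beyond the annotated gene, and Kcnq1 itself had no row. In total, 7 member rows reach more than 10 kb beyond the annotated gene, among them Ryr3 (139 kb), Atp1b1 (129 kb) and Casq2 (58.4 kb). The part of these extensions in their values was not tested. Exons of other genes overlap those of 17 members, 16 of them on the opposite strand. The libraries were made with a stranded kit, but whether the strand was used in the assembly is not given in the sources used here.

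GENCODE annotates 252 genes whose symbols meet the rule, and 17.9% of them had a row, against 11.1% of all 21924 annotated protein-coding gene symbols. The share was 27.3% for genes of calcium release and storage (6 of 22, or 37.5% of the 16 left without an antisense RNA and proteins that only share the Itpr prefix), 42.9% for calcium pumps (3 of 7), 37.5% for the sodium potassium pump (3 of 8) and 25.0% for connexins (4 of 16). It was 10.1% for genes with the Kcn prefix (10 of 99, Kcnq1ot1 included). Genes that are not expressed in myotubes could not be called, so these shares do not compare the response of expressed genes. Members lay on 16 chromosomes, with 8 on chromosome 11 (17.8% of members, against 7.98% of listed features) and 7 on chromosome 1 (15.6%, against 7.45%).

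**Figure D4:**
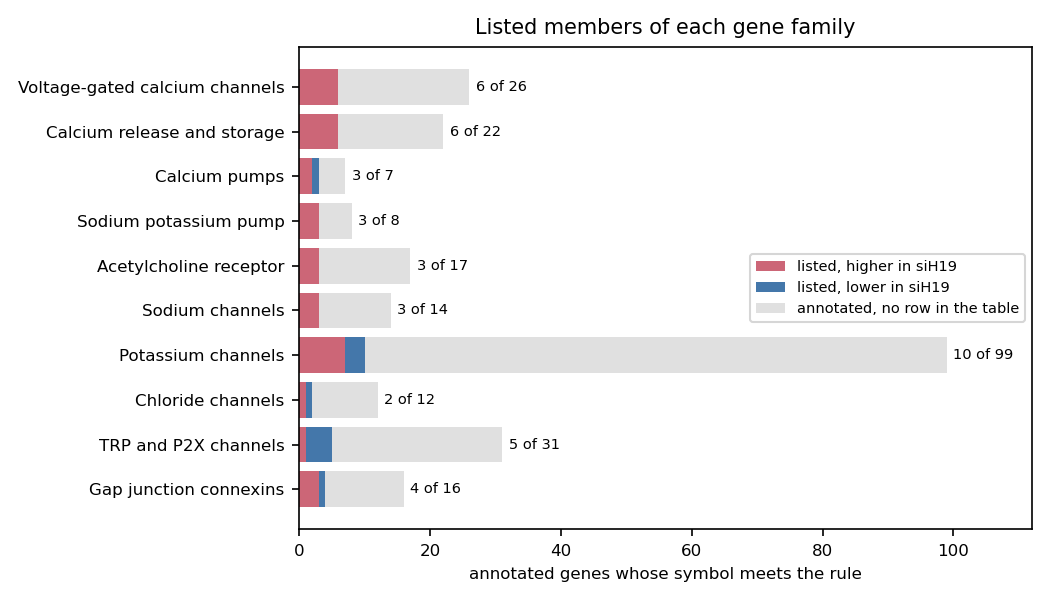
Number of annotated genes in each family whose symbol meets the rule (horizontal), divided into genes listed as higher (red) or lower (blue) in siH19 and genes without a row (grey). The potassium family is the largest, with 10 of 99 genes listed. TRP and purinergic channels have 4 of 5 listed genes lower, against 37.2% of all listed features.

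Genes of the same pathways that the rule did not take were counted from 5 lists. Of 141 genes, 31 had a row, of which 26 were higher and 5 lower, with a median difference of 0.50, against 62.8% higher and a median of 0.45 over all listed features. After centring on that median 18 rows were higher, 12 lower and 1 equal to it. At 1.5-fold without centring, 11 were higher and 2 lower, and 11 of 31 is near the 37.4% of all listed features that were higher by that fold. Among partners of the triad and sarcoplasmic reticulum, 10 of 11 listed genes were higher, and 8 after centring, since Camk2d (0.40) and Tmem38b (0.32) lie under the median. Camk2b (1.56) and Camk2a (1.01), subunits of a calcium-dependent kinase, Srl (sarcalumenin, 0.91), which binds calcium in the sarcoplasmic reticulum, and Sypl2 (0.67), a triad protein, had the largest positive differences. Pvalb (parvalbumin), the calcium buffer of fast fibres, was lower by 1.43, from a log2 FPKM of 2.45 to 1.02. For calcium entry and mitochondrial uptake, 2 of 18 genes had a row, both higher, with Mcu, the mitochondrial calcium uniporter, at a difference of 0.74. In the calcineurin list 2 of 14 had a row, both higher, with Myoz2, a calcineurin-binding protein of the Z disc, at 1.15, while Ppp3cb (0.37), a calcineurin subunit, turns lower after centring. At the neuromuscular junction 5 of 17 had a row and all 5 were higher, or 3 of 5 after centring, when Prkar1a (0.40) and Agrn (0.37) turn lower. Of these 5, Erbb3 (1.11) and Erbb2 (1.01), receptors for neuregulin, were past 1.5-fold. Other channels and pump regulators were more divided, with 7 higher and 4 lower of 11. After centring 4 were higher and 6 lower, with Lrrc8d (0.39) and Grik5 (0.41) turning lower and Pkd1 (0.45) equal to the median. Without centring, only Fxyd6 (0.93), of a family of pump regulators, and Lrrc8e (-0.61), a subunit of volume-regulated channels, were past 1.5-fold. The genes of these lists under 1.5-fold were named after their values were seen.

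**Figure D5:**
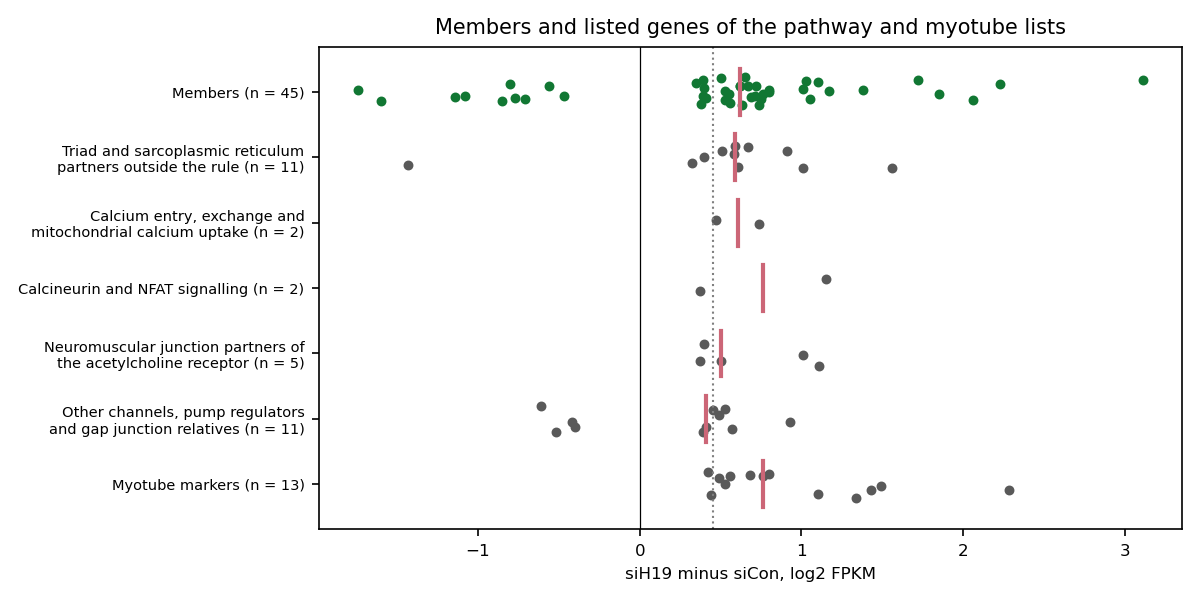
Difference of log2 FPKM (siH19 minus siCon, horizontal) for the members and for listed rows of the 5 pathway lists and the myotube markers, with 1 point per row, a red bar at each median and a dotted line at 0.45, the median of all listed features. All 13 myotube marker rows and 35 of 45 members lie above 0, and 11 and 29 of them lie above the dotted line.

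Listed myotube markers were all higher, whereas 10 of the 45 members were lower. Of 23 such genes, 17 were listed, in 13 rows because some share a row, and all 13 were higher, by 0.42 (Myl1) to 2.28 (Actc1), with a median difference of 0.76, against 62.8% higher over all listed features. After centring 11 of the 13 rows were higher, with Myl1 and Tnnc2 (0.44) turning lower. Myog had a log2 FPKM of 7.79 with siCon and 9.22 with siH19. Of markers of other cells, 2 of 9 smooth muscle and pericyte genes had a row, Acta2 (0.47) and Pdgfrb (0.41), 1 of 8 fibroblast genes, Col1a1 (0.41), and 0 of 8 macrophage genes. Genes without a row may still be expressed. The part of these markers in the member differences was not tested.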

How the data were processed

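RNA-seq libraries of 3 siCon- and 3 siH19-transfected C3H myotube cultures were prepared as stranded, paired-end libraries of rRNA-depleted total RNA. The authors mapped reads to mm10 (TopHat Alignment app, version 1.0.0), assembled transcripts by Cufflinks and tested them by Cuffdiff, version 2.1.1. The submitters' processing notes also name TopHat2 2.0.7. What the authors deposited is a log2 scale FPKM per group, to 2 decimals and pooled over its libraries, for called features only. The authors' own fold change column and the q-value column, an adjusted p-value, are deposited beside them and were not used. Depth per library is unknown.

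Differences, counts, medians and sums were computed from the group values without a pseudocount or filter, and 1.5-fold served as the fold limit. Alternatives were pseudocounts, a level filter, centring and another fold limit. Every member could be named, but a few items are not reported here, although the counts include them. Of the pathway lists, genes past 1.5-fold were named, at most 5 a list. The members and lists were chosen with earlier results of these data known. Row starts were taken as counted from 0 and 1 was added. Annotation was GENCODE M21 (GRCm38, the same assembly as mm10), in which all 45 symbols were found. Python 3.11.15, numpy 2.4.6, pandas 2.3.3 and matplotlib 3.10.9 were used, and the counting was tested on simulated data.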

Additional observations from a re-analysis of the deposited data

How the results depend on the processing

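No paired analysis was possible because each group had 1 pooled value, and for the same reason leaving out each replicate in turn was not run. Of 103 recomputed counts, 93 came within 1.5 times of the reported one. Many of these could not move by construction, because most are counts of signs, which a pseudocount cannot turn. That share is therefore no measure of robustness. With 1 FPKM added to both groups, 12 members were higher and 3 lower by at least 1.5-fold, instead of 24 and 8. At 2-fold 11 were higher and 4 lower, and 5 were lower by 1.5-fold once features whose larger log2 FPKM was under 0 had been left out. Lowering every difference by 0.45, the median of all listed features, left 9 members higher and 10 lower by at least 1.5-fold. Without a fold limit it gave 29 higher and 16 lower, instead of 35 and 10. It also left 1 higher row of the calcineurin list, 3 of the neuromuscular list and 4 of the other channels. The shares of all listed features at 1.5-fold after centring were not computed, and the median rests on called features only. The 6 members whose sign turned under that centring were Gja1 (-0.10), Chrna1 (-0.07), Kcnf1 (-0.06), Kcnq1ot1 (-0.06), Cacna2d1 (-0.05) and Cacng1 (-0.04). The other alternatives cannot turn a sign by construction. The unknown spread and depth limit every value.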
